A study of Mus musculus with 8 samples.

Results

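The E2F transcription factors and the retinoblastoma (pocket) proteins form the switch that commits a cell to DNA replication. The 10 genes described here are the activator E2Fs E2f1, E2f2 and E2f3, the repressor E2Fs E2f4, E2f7 and E2f8, the dimerization partner Tfdp1, and the pocket protein genes Rb1, Rbl1 and Rbl2. They were chosen by symbol among the 55414 genes counted in each RNAseq library, and all 10 passed the filter on low counts that left 16778 genes for testing. Spleen neutrophils were compared between 4 WT and 4 Cxcr2-/- mice, with 1 library per mouse. All mice were 10 weeks old, on the FVB background, and kept in the same kind of pathogen-free housing (SOPF). The Cxcr2-/- allele is a germline knockout, so every cell of these animals lacked the receptor and not the neutrophils alone. Cells were enriched on CD11b and then sorted as CD45+ CD11b+ Ly6G+ F4/80-, a gate that takes both immature and mature neutrophils.

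E2F proteins bind DNA as dimers with a DP protein, except for E2F7 and E2F8, which need no DP partner. In resting cells, pocket proteins hold the E2Fs and recruit chromatin enzymes that keep target genes silent, and cyclin-dependent kinases release them by phosphorylating the pocket protein. Neutrophil precursors divide in the bone marrow and, in mice, also in the spleen, whereas mature neutrophils have left the cell cycle for good.

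Of the 10 genes, 8 had more RNA in Cxcr2-/- than in WT neutrophils, by between 1.53-fold and 2.54-fold. These 8 were all 6 E2F genes, Tfdp1 and Rbl1. Rb1 and Rbl2 were the exceptions, with fitted ratios of Cxcr2-/- to WT of 0.834 and 0.902 that did not pass the test. Values are CPM, a gene's counts divided by the TMM-scaled library size and brought to a common scale for all libraries, and differences were tested in edgeR with its quasi-likelihood method and a Benjamini-Hochberg adjustment over all genes tested. A gene passed with an adjusted p under 0.05. The background was wide, since 44.7% of all genes tested passed in either direction, 23.7% as higher in Cxcr2-/- and 21% as lower. The 8 genes also passed with a change of at least 1.5-fold, as did 15.7% of all genes in the higher direction. In each of the 8 the lowest Cxcr2-/- library lay above the highest WT library, a separation seen in 22.5% of all genes. The median log2 fold change was 0.82 over the 10 genes and 0.01 over all genes tested. No member passed as lower, although 1 (Rb1) had an unadjusted p under 0.05, and DESeq2 gave the same counts of 8 higher and 0 lower.

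Several of these genes carry E2F sites in their own promoters in textbook accounts, so the promoter sequences were read from RefSeq (GRCm38.p6), which held a window around the start for 8 of the 10 genes. E2f4 and Rb1 had no window. Each window covers 250 bases before and 50 bases after a transcription start. Both strands were searched for an E2F motif in any of its 4 spellings TTTCCCGC, TTTGGCGC, TTTCGCGC and TTTGCCGC, and for the cell cycle homology region (CHR) TTTGAA, the promoter element of mitotic genes that MuvB complexes bind. The 250 bases upstream of 6 genes are shown, 4 that hold an E2F motif and 2 that hold a CHR motif alone, 5′ to 3′ on the strand of the gene, with the motif in capitals. Those with an E2F motif lie at chr13:29986064-29986313 (E2f3, minus strand), chr10:110745189-110745438 (E2f7, plus strand), chr8:13338501-13338750 (Tfdp1, plus strand) and chr2:157204535-157204784 (Rbl1, minus strand). Those with a CHR alone lie at chr7:48881597-48881846 (E2f8, minus strand) and chr8:91069807-91070056 (Rbl2, plus strand).
E2f3: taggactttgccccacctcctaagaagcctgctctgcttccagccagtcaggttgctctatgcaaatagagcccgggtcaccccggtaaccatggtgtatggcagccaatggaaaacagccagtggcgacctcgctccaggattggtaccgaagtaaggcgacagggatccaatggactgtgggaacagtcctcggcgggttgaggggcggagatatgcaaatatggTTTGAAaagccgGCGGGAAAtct
E2f7: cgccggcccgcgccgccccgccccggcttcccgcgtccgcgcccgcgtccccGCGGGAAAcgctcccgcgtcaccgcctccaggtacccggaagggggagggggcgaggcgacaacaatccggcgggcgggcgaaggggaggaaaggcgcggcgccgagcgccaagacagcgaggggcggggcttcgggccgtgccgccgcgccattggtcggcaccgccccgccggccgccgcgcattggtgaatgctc
Tfdp1: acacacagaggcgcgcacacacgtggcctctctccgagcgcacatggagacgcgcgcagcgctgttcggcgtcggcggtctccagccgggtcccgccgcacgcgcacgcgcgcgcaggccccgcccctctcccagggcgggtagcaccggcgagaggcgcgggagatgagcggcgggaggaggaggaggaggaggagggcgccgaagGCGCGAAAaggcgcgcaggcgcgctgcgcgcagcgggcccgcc
Rbl1: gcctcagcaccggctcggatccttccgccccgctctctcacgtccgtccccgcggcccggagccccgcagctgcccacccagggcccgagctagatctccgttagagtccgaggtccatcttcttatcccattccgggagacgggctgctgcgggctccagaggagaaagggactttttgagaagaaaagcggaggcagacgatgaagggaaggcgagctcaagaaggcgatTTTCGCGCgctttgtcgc
E2f8: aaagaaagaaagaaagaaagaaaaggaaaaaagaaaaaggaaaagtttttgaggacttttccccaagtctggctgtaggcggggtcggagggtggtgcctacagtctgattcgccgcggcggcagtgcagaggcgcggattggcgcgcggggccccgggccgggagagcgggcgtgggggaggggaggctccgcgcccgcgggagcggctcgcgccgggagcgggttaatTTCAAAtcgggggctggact
Rbl2: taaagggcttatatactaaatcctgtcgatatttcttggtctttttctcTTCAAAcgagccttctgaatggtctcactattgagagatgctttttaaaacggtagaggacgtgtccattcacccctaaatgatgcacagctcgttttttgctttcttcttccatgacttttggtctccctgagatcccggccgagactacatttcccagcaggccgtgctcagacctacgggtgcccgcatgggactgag

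E2f3 held both motifs, with the CHR at position -23 and the E2F motif at position -11, where the base before the start is -1 and the position is that of the first motif base. The E2F motif lay at -198 in E2f7, at -43 in Tfdp1 and at -18 in Rbl1. In E2f2 it lay 40 bases after the start and is not shown. The CHR of E2f8 was at -20 and that of Rbl2 at -201. A second E2f2 start had a CHR at -31. E2f1 had neither motif in its window, whose start lies inside the gene as GENCODE draws it. An E2F motif was thus present for 5 of 8 genes with a window, and for 2.6% of all 27025 genes with a window (2.26% of 32851 windows). A CHR motif was present for 4 of 8 genes and for 20.2% of all genes with a window (17.9% of windows). The 5 genes with an E2F motif all rose, as did E2f8 without one. Of the genes with a CHR, E2f2, E2f3 and E2f8 rose and Rbl2 did not pass the test. How often genes with either motif rose among all genes was not counted, so a link between motif and rise was not tested. E2f1 rose too, but the bases before its GENCODE start lay outside the window and were not searched. A match is only a string of letters and does not show that a factor is bound there in neutrophils.

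The activator E2Fs switch on the genes of S phase. E2f1, the founding member, measured 6.26, 4.62, 5.85 and 6.16 CPM in WT replicates 1 to 4 and 13.5, 11.1, 13.1 and 13.4 CPM in Cxcr2-/- replicates 1 to 4. The groups did not overlap, and the lowest library of each was replicate 2. The means were 5.72 ± 0.754 and 12.8 ± 1.13 CPM (SD, n = 4 each), a 2.23-fold difference (95% interval 1.81 to 2.75). The log2 fold change was 1.16 with a standard error of 0.14 (edgeR adjusted p = 3.05e-05).

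E2f2, best known from blood cells, where it restrains as well as drives division, measured 128, 115, 104 and 121 CPM in the WT libraries. The Cxcr2-/- libraries had 268, 243, 194 and 184 CPM. The groups did not overlap, and the spread was wider in Cxcr2-/-, with a coefficient of variation of 18% against 8.51% in WT. The change was 1.90-fold (95% interval 1.57 to 2.29), with an edgeR adjusted p of 8.47e-05.

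E2f3, which shares S phase targets with E2f1, was at 11.5, 11.0, 11.4 and 11.4 CPM in WT. In the Cxcr2-/- libraries E2f3 was at 17.8, 19.4, 16.4 and 15.8 CPM. WT values were tight, with a coefficient of variation of 2.23%, and every Cxcr2-/- library lay above them. The change was 1.53-fold (95% interval 1.31 to 1.80), the smallest among the activators, with an edgeR adjusted p of 0.000479.

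The repressor E2Fs rose as well. E2f4, the E2F that occupies promoters in resting cells together with the Rb relatives, measured 23.4, 20.3, 23.8 and 20.2 CPM in WT and 38.3, 31.96, 33.7 and 30.4 CPM in Cxcr2-/- libraries. The groups did not overlap. E2f4 rose 1.53-fold (95% interval 1.31 to 1.79, edgeR adjusted p = 0.00044).

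E2f7 and E2f8 encode the atypical E2Fs, which are made in S phase and shut E2F targets off again. E2f7 measured 2.87, 3.78, 3.98 and 2.72 CPM in WT and 8.97, 7.58, 9.20 and 8.26 CPM in Cxcr2-/- libraries. It had the largest change of the 10 genes, 2.54-fold (95% interval 1.98 to 3.27, edgeR adjusted p = 4.01e-05), at low counts of 94 to 188 in WT and 274 to 362 in Cxcr2-/- libraries. E2f8 measured 20.2, 19.8, 21.0 and 20.7 CPM in WT and 38.0, 38.1, 39.7 and 37.3 CPM in Cxcr2-/- libraries. Its libraries were the most alike of all 10 genes in Cxcr2-/-, with a coefficient of variation of 2.58%, and its change of 1.88-fold had the narrowest interval of the 8 genes that rose (1.66 to 2.12, edgeR adjusted p = 3.16e-06). The annotation has Gm2788 antisense over 11.2% of the exon bases of E2f8. The libraries were strand-specific, but the strand setting of the counting is not given in the sources used here, so reads of that overlap could not be assigned.

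Tfdp1, whose protein DP1 pairs with the E2Fs other than E2F7 and E2F8, measured 137, 106, 112 and 126 CPM in WT. It measured 219, 221, 183 and 171 CPM in Cxcr2-/- libraries. The groups did not overlap and the change was 1.65-fold (95% interval 1.39 to 1.97, edgeR adjusted p = 0.000283).

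**Figure D1:**
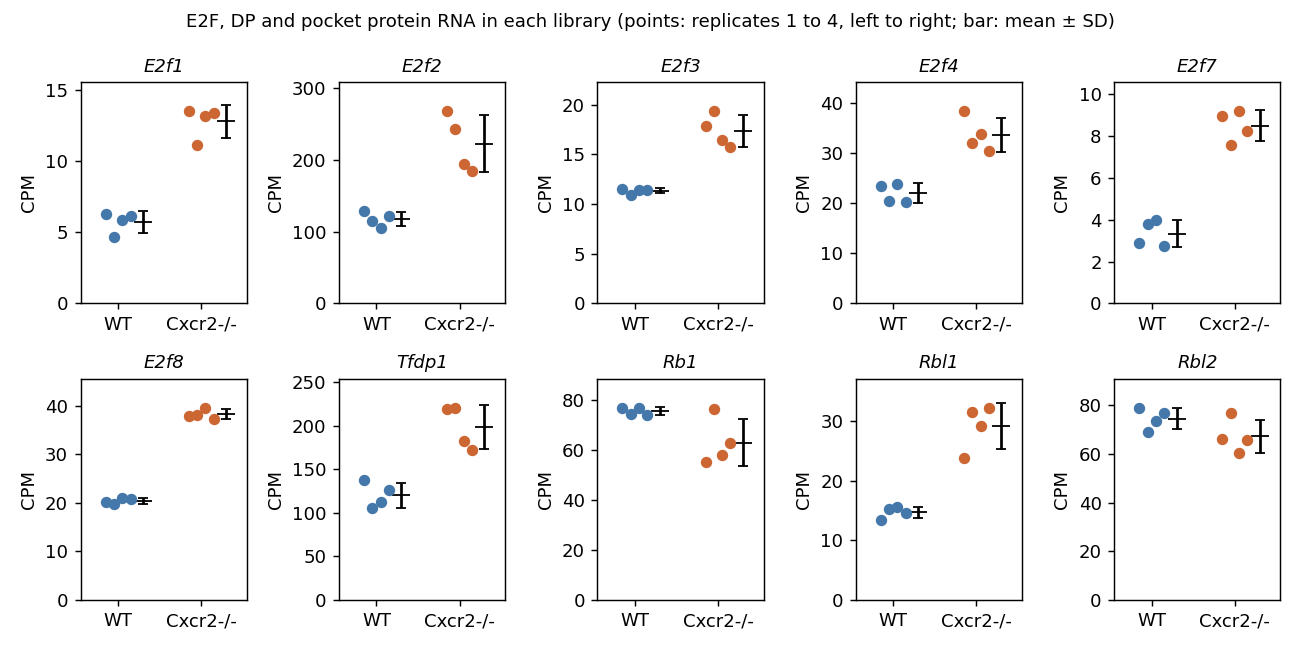
RNA of each of the 10 genes in CPM (linear axes from 0), 1 point per library with replicates 1 to 4 from left to right in each group, and the mean ± SD of the 4 libraries beside them. In 8 panels all Cxcr2-/- points lie above all WT points, while for Rb1 and Rbl2 the groups overlap through Cxcr2-/- replicate 2 at 76.2 and 76.9 CPM.

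The pocket proteins did not move as a group. Rbl1, which encodes the Rb relative that is itself an E2F target and accumulates in dividing cells, measured 13.5, 15.3, 15.5 and 14.6 CPM in WT and 23.8, 31.6, 29.1 and 32.3 CPM in Cxcr2-/- libraries. The groups did not overlap. Rbl1 rose 1.99-fold (95% interval 1.67 to 2.36, edgeR adjusted p = 2.28e-05), behind E2f7 and E2f1 alone among the 10 genes.

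Rb1, the retinoblastoma gene itself, measured 76.8, 74.1, 76.7 and 73.7 CPM in WT and 54.9, 76.2, 57.7 and 62.5 CPM in Cxcr2-/- libraries. The WT libraries were nearly equal, 3 of the 4 Cxcr2-/- libraries lay below all of them, and replicate 2 lay among them. The log2 fold change of -0.26 (95% interval -0.49 to -0.04) had an edgeR adjusted p of 0.0556. Without Cxcr2-/- replicate 2 it was -0.36 with an edgeR adjusted p of 0.00664. With all 8 libraries Rb1 also passed under RLE (edgeR adjusted p = 0.047) and upper-quartile normalization (edgeR adjusted p = 0.0101). The call thus hangs on that library and on the scaling. Exons of Rcbtb2 and Lpar6 lie antisense to 14.9% of the exon bases of Rb1.

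Rbl2, the Rb relative that prevails in cells that have stopped dividing, measured 79.1, 69.0, 73.4 and 76.7 CPM in WT and 66.1, 76.9, 60.6 and 65.6 CPM in Cxcr2-/- libraries. The groups overlapped through Cxcr2-/- replicate 2, which was the highest of its group for Rb1 as well. The log2 fold change was -0.15 (95% interval -0.35 to 0.05, edgeR adjusted p = 0.215), an interval that leaves room for no change and for a fall to 0.785 of the WT level. Exons of Aktip and Gm45464 lie antisense to 21.0% of its exon bases.

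**Figure D2:**
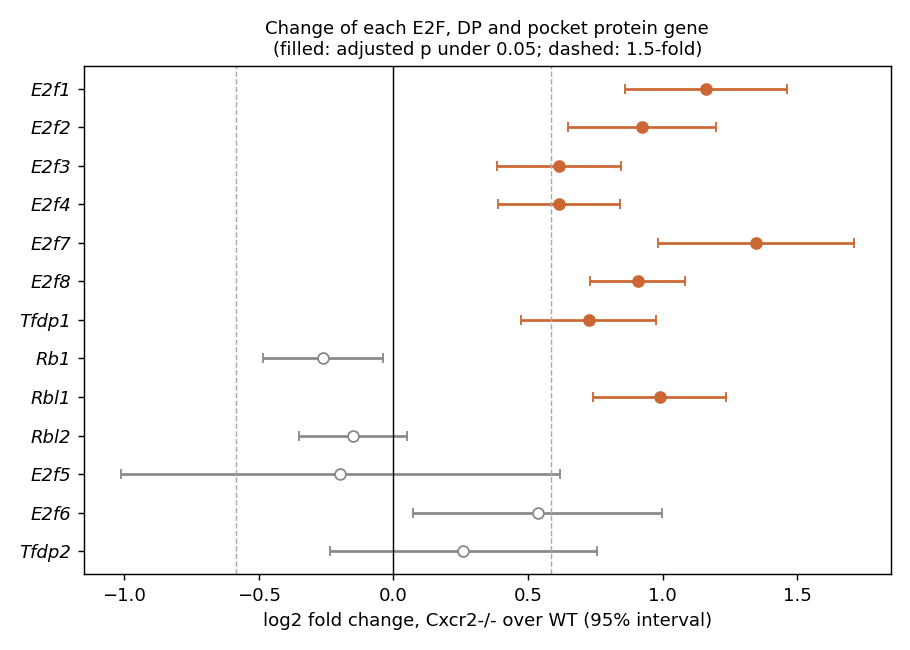
Log2 fold change (Cxcr2-/- over WT) of the 10 genes and of E2f5, E2f6 and Tfdp2 with 95% intervals from the edgeR fit; filled points passed with an adjusted p under 0.05 and dashed lines mark 1.5-fold. The 8 filled points range from 0.62 (E2f3 and E2f4) to 1.35 (E2f7), and the Rb1 and Rbl2 intervals end at -0.04 and 0.05.

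The other E2F and DP genes were measured for completeness. E2f6, a repressor that works with polycomb proteins and without pocket proteins, measured 2.23, 1.97, 1.36 and 1.65 CPM in WT and 2.55, 2.27, 2.90 and 2.77 CPM in Cxcr2-/- libraries. Its groups did not overlap, but its log2 fold change of 0.54 missed the threshold (edgeR adjusted p = 0.0573), and it passed with an adjusted p of 0.0342 when WT replicate 1 was left out. E2f5, a pocket-bound repressor, had between 20 and 74 counts per library and a log2 fold change of -0.20 (95% interval -1.01 to 0.62, edgeR adjusted p = 0.70), an interval that holds changes of 1.5-fold both ways. Tfdp2, the second DP gene, had a log2 fold change of 0.26 (95% interval -0.23 to 0.76, edgeR adjusted p = 0.382). Of these 3 genes none passed in either direction with edgeR or DESeq2, and 1, E2f6, had an unadjusted p under 0.05.

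Levels of different genes were set against each other only after division by exon length, as CPM per kb of exon. In WT neutrophils Tfdp1 stood highest at 32.7 ± 3.87 CPM per kb and E2f2 next at 24.0 ± 2.04 CPM per kb. Rb1 (12.5 ± 0.275), Rbl2 (9.87 ± 0.579) and E2f4 (8.94 ± 0.801) followed, of which Rbl2 and E2f4 overlapped. E2f8 (3.75 ± 0.105), Rbl1 (2.45 ± 0.153), E2f3 (2.09 ± 0.0465) and E2f1 (1.81 ± 0.239) came next and were separate from their neighbours in this order. E2f7 (0.371 ± 0.0704) was the lowest of the 10 genes, and E2f5, E2f7 and E2f6 overlapped one another in turn. Spleen neutrophils of WT mice thus held more than 10 times as much E2f2 as E2f1 per length, with a ratio of 11.5 to 16.1 in the 4 libraries.

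In Cxcr2-/- neutrophils some genes changed places in this order. E2f4, at 13.7 ± 1.40 CPM per kb, moved ahead of Rb1 and Rbl2, although its range still overlapped that of Rb1 at 10.4 ± 1.57 CPM per kb. E2f1, at 4.05 ± 0.358 CPM per kb, moved ahead of E2f3 at 3.20 ± 0.295 CPM per kb, with overlapping ranges. Tfdp1 (54.1 ± 6.87) and E2f2 (45.5 ± 8.17) stayed first and second and now overlapped.

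**Figure D3:**
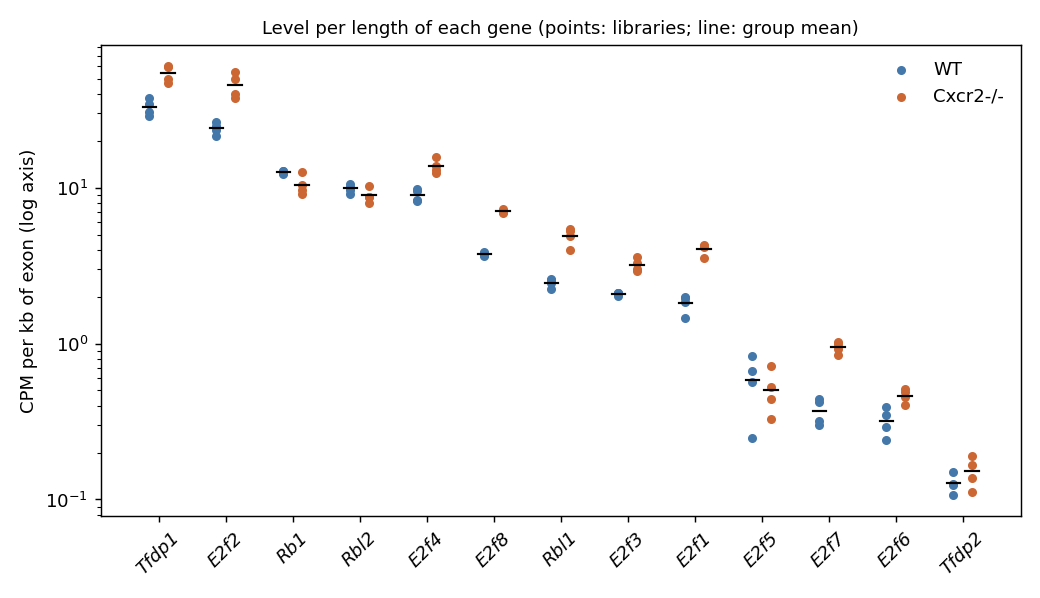
CPM per kb of exon on a log axis for the 10 genes and for E2f5, E2f6 and Tfdp2, ordered by the WT mean, with 1 point per library and a line at each group mean. WT means run from 32.7 (Tfdp1) to 0.127 (Tfdp2), and among the 5 genes at the left only Rb1 and Rbl2 have Cxcr2-/- means below their WT means.

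The RNA of the 6 E2F genes was set against that of the 3 pocket protein genes in each library, from the same per-length values. The 6 E2F genes together summed to 43.9, 39.4, 39.4 and 41.2 CPM per kb in WT and 86.0, 77.8, 68.9 and 65.1 CPM per kb in Cxcr2-/- libraries. The 3 pocket protein genes summed to 25.5, 24.0, 25.0 and 24.8 CPM per kb in WT and 21.8, 28.1, 22.5 and 24.5 CPM per kb in Cxcr2-/- libraries. The E2F sum separated the groups and the pocket protein sum did not, with means of 24.8 ± 0.620 and 24.2 ± 2.83 CPM per kb. The ratio of E2F RNA to pocket protein RNA was 1.65 ± 0.0613 in WT (1.57 to 1.72) and 3.11 ± 0.581 in Cxcr2-/- (2.66 to 3.94).

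Within the pocket protein sum, Rbl1 made up 9.89% ± 0.796 in WT and 20.1% ± 1.96 in Cxcr2-/- libraries, without overlap. The Rb1 share was 50.4% ± 0.884 and 43.0% ± 1.42, also without overlap, whereas the Rbl2 shares overlapped at 39.7% ± 1.52 and 36.8% ± 2.14. Within the E2F sum, E2f2 made up most of the RNA in both groups, 58.5% ± 2.81 and 60.8% ± 3.54, with overlapping ranges. The 3 activators together made up 68.1% ± 2.52 in WT and 70.7% ± 2.57 in Cxcr2-/- libraries, again with overlap. These shares restate the values of the single genes and were not tested. RNA levels do not tell how much protein is present or how much of it is phosphorylated.

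E2f7 had the largest rise, and the genes whose libraries ran closest to it were Rangap1, Plk4 and Wee1. Likeness was the root mean square difference in log2 CPM, each gene taken relative to its WT mean, over 8 libraries and the 9335 genes with a mean log2 CPM of at least 2, with 0.1 CPM added before the log. It was 0.115 for Rangap1, which encodes the GTPase activator of Ran, 0.118 for Plk4, the kinase of centriole duplication, and 0.126 for Wee1, the kinase that holds back Cdk1. Plk4 measured 9.93, 12.7, 12.0 and 8.36 CPM in WT and 23.6, 23.9, 27.5 and 27.1 CPM in Cxcr2-/- libraries. Since the measure uses the group difference itself, the likeness is a description of these libraries.

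The kinases that phosphorylate pocket proteins, and the inhibitors of those kinases, went both ways. Of 16 genes listed, 14 were tested, 7 were higher, 4 were lower and 3 did not pass, with a median log2 fold change of 0.41. Over all genes tested, 23.7% passed as higher and 21% as lower. The genes that passed as higher were Ccne1, Cdc25a, Cdkn2c, Cdk2, Cdkn2d, Ccnd3 and Cdk4, and those that passed as lower were Ccnd2, Cdkn2b, Ccnd1 and Cdkn1b. Cdk6 and Ccne2 lay near 0 with log2 fold changes of -0.02 and 0.07, and Cdkn1a had -0.44 (edgeR adjusted p = 0.232). Genes of this list other than the 3 largest changes in each direction were named after their values were seen.

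The D cyclins, which open the attack on Rb, differed from one another. Ccnd3, the D cyclin of maturing blood cells, measured 501, 457, 492 and 444 CPM in WT and 1015, 837, 856 and 715 CPM in Cxcr2-/- libraries, a log2 fold change of 0.85 (edgeR adjusted p = 7.89e-05). Ccnd2 measured 52.4, 57.8, 41.7 and 47.1 CPM in WT and 13.0, 13.3, 14.2 and 19.5 CPM in Cxcr2-/- libraries, a log2 fold change of -1.73 (edgeR adjusted p = 1.90e-06). Both genes separated the groups completely. Ccnd1 overlapped between the groups, since WT ran from 3.04 to 13.7 CPM with replicate 2 at the top and Cxcr2-/- from 2.29 to 3.67 CPM, and its log2 fold change was -1.27 (edgeR adjusted p = 0.0139, and 0.15 once RNA of other cell types was a covariate).

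Cyclin E with Cdk2 completes Rb phosphorylation. Ccne2 did not pass. Ccne1, encoding cyclin E1, rose from 1.13 ± 0.253 to 4.39 ± 1.16 CPM, a log2 fold change of 1.95 (edgeR adjusted p = 5.24e-05). Cdk2 rose with a log2 fold change of 1.09, from 56.8 ± 4.64 to 121 ± 15.1 CPM (edgeR adjusted p = 6.01e-06). Cdc25a, the phosphatase that activates Cdk2 and an E2F target, was at 24.5, 25.0, 24.0 and 25.9 CPM in WT and 72.5, 73.3, 71.5 and 67.5 CPM in Cxcr2-/- libraries, a log2 fold change of 1.52 (edgeR adjusted p = 7.77e-08).

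Among the inhibitors, Cdkn1b, which encodes the p27 protein that blocks cyclin E with Cdk2, fell. It measured 473, 392, 405 and 432 CPM in WT and 183, 215, 223 and 247 CPM in Cxcr2-/- libraries, without overlap, a log2 fold change of -0.97 (edgeR adjusted p = 2.05e-05). Cdkn2c and Cdkn2d, INK4 inhibitors of Cdk4 and Cdk6, rose with log2 fold changes of 1.36 (edgeR adjusted p = 9.98e-07) and 0.98 (edgeR adjusted p = 6.46e-05). Cdkn2b, another INK4 gene, fell by 1.67 on the log2 scale (edgeR adjusted p = 0.0131), at less than 1 CPM in all 8 libraries, and missed the threshold without WT replicate 2 (adjusted p = 0.0524). Cdkn1c and Cdkn2a did not pass the filter on low counts.

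Classical E2F targets of the G1/S transition were mostly higher in Cxcr2-/- neutrophils. Of 28 genes in the list, all tested, 25 passed as higher and none as lower with edgeR, where 23.7% and 21% of all genes did. The median log2 fold change was 1.27. At an unadjusted p under 0.05, 1 gene (Pcna) was lower, and DESeq2 called the same number lower. The largest changes were in Ccna2 (cyclin A2, log2 fold change 2.09), Uhrf1 (maintenance of DNA methylation, 2.01) and Cdk1 (the mitotic kinase, 1.98). Ccna2 measured 11.2, 10.5, 11.0 and 9.08 CPM in WT and 42.1, 45.2, 47.6 and 42.9 CPM in Cxcr2-/- libraries (edgeR adjusted p = 5.29e-08).

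The 3 targets that did not pass were Pcna, the sliding clamp of DNA polymerase, Mcm4, a subunit of the replicative helicase, and Slbp, which binds histone mRNA. Pcna measured 59.3, 59.9, 56.0 and 54.8 CPM in WT and 30.4, 33.1, 51.0 and 56.4 CPM in Cxcr2-/- libraries, so that Cxcr2-/- replicate 4 lay within the WT range and replicates 1 and 2 far below it. Its log2 fold change was -0.43 (edgeR adjusted p = 0.0584), and without Cxcr2-/- replicate 4 it was -0.60 (adjusted p = 0.00859). Mcm4 and Slbp had log2 fold changes of 0.18 (edgeR adjusted p = 0.320) and -0.17 (edgeR adjusted p = 0.142).

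The Cxcr2-/- libraries were not alike in these targets. Within the Cxcr2-/- group, 22 of the 28 targets were highest in replicate 4. Cdc6, which loads the helicase, measured 4.80, 4.90, 10.4 and 12.0 CPM in Cxcr2-/- replicates 1 to 4, and Mcm6, another helicase subunit, measured 12.2, 13.5, 23.5 and 30.5 CPM. Of the 10 family members, Rbl1 alone was highest in replicate 4, and E2f1, E2f2 and E2f4 were highest in replicate 1. The 5 markers of primary granule precursors, the promyelocytes, were also all highest in replicate 4, with Mpo at 19.1, 20.2, 81.2 and 145.8 CPM. Of 7 markers of secondary granule precursors, the later myelocytes and metamyelocytes, 6 were highest in replicate 1. With Cxcr2-/- replicates 3 and 4 both left out, a choice made after seeing the data, 8 members passed as higher and 0 as lower. The replicates kept, 1 and 2, still held 70.5 and 71.8 CPM of summed primary granule precursor markers, against 4.37 to 17.3 CPM in WT. That fit therefore did not remove precursor RNA, and the part of precursor cells in the member values was not tested.

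**Figure D4:**
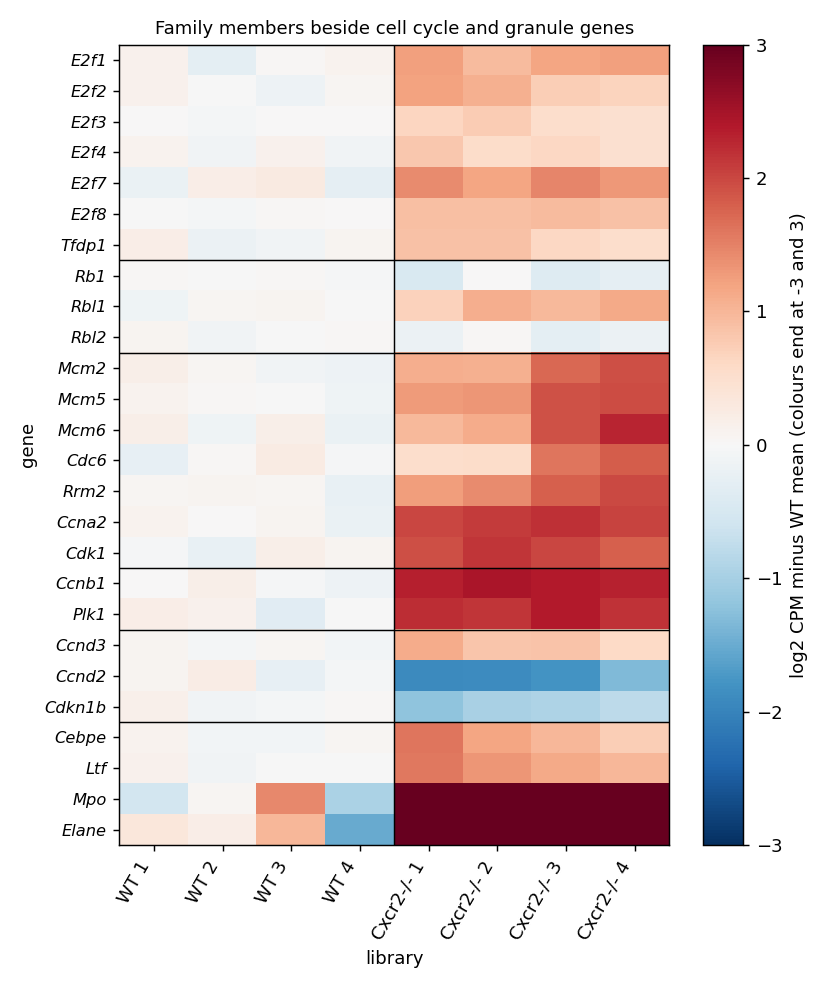
Log2 (CPM + 0.1) minus the WT mean in the 8 libraries. Shown are the 10 family members, 7 G1/S targets (Mcm2 to Cdk1), 2 mitotic genes, 3 regulators of Rb phosphorylation and 4 markers of granule precursors. Red is higher and blue lower than the WT mean, and colours end at -3 and 3, beyond which Mpo and Elane lie. E2f8 is nearly even across the Cxcr2-/- libraries, whereas Mcm6 and Cdc6 are deepest red in Cxcr2-/- replicate 4.

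The E2F motif was present in the promoter window of 11 of the 23 G1/S targets that had one (47.8%), and in 0 of 12 windows of the mitotic genes. The CHR motif showed the reverse, in 4 of 23 windows (17.4%) of G1/S targets and in 7 of 12 (58.3%) of mitotic genes. Both lists were drawn up as targets of these elements, so the shares describe the lists.

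The MuvB complex joins E2F4, DP1 and an Rb relative in resting cells to form the DREAM repressor, and later joins B-Myb and FoxM1 to activate mitotic genes. Of the 7 genes measured, 4 passed as higher and none as lower with edgeR, where 23.7% and 21% of all genes tested did. None was lower at an unadjusted p under 0.05, and DESeq2 gave the same counts. Foxm1 rose from 10.9 ± 0.747 to 32.7 ± 3.05 CPM (log2 fold change 1.58, edgeR adjusted p = 3.42e-07), and Mybl2, which encodes B-Myb, from 3.27 ± 0.348 to 6.63 ± 1.36 CPM (log2 fold change 1.02, edgeR adjusted p = 0.0006). The core subunit Lin9 rose with a log2 fold change of 1.22 (edgeR adjusted p = 0.000252) and Lin37 with 0.48 (edgeR adjusted p = 0.0118). Lin52 and Rbbp4 had log2 fold changes of -0.01 and 0.18 and did not pass, nor did Mybl1, a relative of Mybl2, with 0.56 (edgeR adjusted p = 0.103). Lin54 was not analysed here.

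DREAM silences mitotic genes with CHR promoters, and B-Myb with FoxM1 turns them on. The mitotic genes listed here as CHR targets were higher throughout. All 15 passed as higher, where 23.7% of all genes tested did. Their median log2 fold change was 2.09, with a range from 0.87 (Aurka, a spindle kinase) to 2.56 (Ube2c, a ubiquitin-conjugating enzyme of mitotic exit). Ccnb1, which encodes cyclin B1, measured 5.77, 6.45, 5.53 and 5.15 CPM in WT and 29.1, 31.5, 30.2 and 28.7 CPM in Cxcr2-/- libraries (log2 fold change 2.38, edgeR adjusted p = 3.49e-08). Kif20a, a kinesin of cytokinesis, rose with a log2 fold change of 2.25 (edgeR adjusted p = 1.12e-07). Unlike the G1/S targets, these genes were highest in different Cxcr2-/- libraries, 2 in replicate 1, 6 in replicate 2, 5 in replicate 3 and 2 in replicate 4. In bulk samples such as these, more cells of a type and more RNA per cell cannot be told apart.

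**Figure D5:**
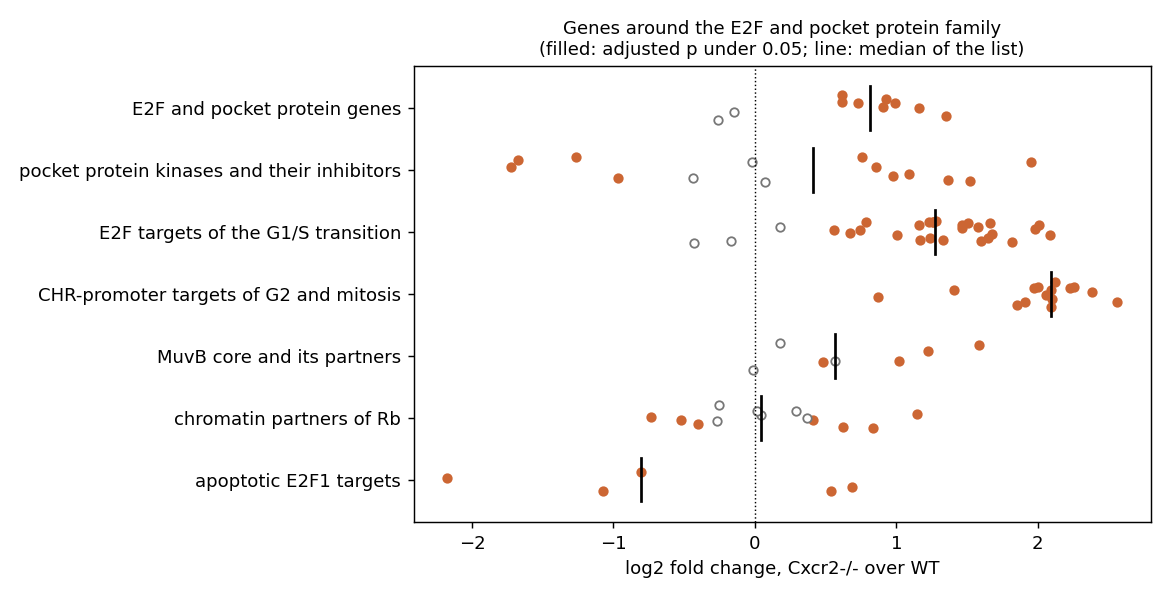
Log2 fold change (Cxcr2-/- over WT) of each tested gene in 7 lists, with filled points for an adjusted p under 0.05 and a vertical line at the median of each list. The medians run from -0.81 (apoptotic E2F1 targets) to 2.09 (mitotic genes listed as CHR targets), with 0.82 for the E2F and pocket protein genes.

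Chromatin partners of Rb, which silence E2F targets, were near the background of all genes. Of 13 genes, 4 passed as higher and 3 as lower, where 23.7% and 21% of all genes tested did, and 6 did not pass. The median log2 fold change was 0.04. The ATPases of the SWI/SNF remodelling complex moved in opposite directions. Smarca4 rose from 35.9 ± 3.13 to 79.3 ± 10.7 CPM (log2 fold change 1.14, edgeR adjusted p = 4.92e-06), and Smarca2 fell from 195 ± 14.3 to 148 ± 4.94 CPM (log2 fold change -0.40, edgeR adjusted p = 0.00237). Suv39h1, a histone H3 methyltransferase, and Hdac3, a histone deacetylase, rose with log2 fold changes of 0.84 (edgeR adjusted p = 0.000351) and 0.62 (edgeR adjusted p = 0.00108). The Rb-binding proteins Arid4a and Arid4b fell by 0.73 (edgeR adjusted p = 3.33e-05) and by 0.52 (edgeR adjusted p = 0.000428) on the log2 scale. A covariate for the share of read pairs that HTSeq counted on no feature was also tried. With it, Hdac3 (log2 fold change 0.37, edgeR adjusted p = 0.194), Smarca2 (-0.27, 0.204) and Arid4b (-0.40, 0.0704) did not pass. Arid4a was at 233, 255, 242 and 281 CPM in WT and 153, 156, 151 and 149 CPM in Cxcr2-/- libraries, without overlap.

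E2F1 is also known to induce genes of apoptosis, and these were divided by kind. Of 5 genes tested from a list of 7, 2 passed as higher and 3 as lower, where 23.7% and 21% of all genes tested did. The median log2 fold change was -0.81. Casp8, the initiator caspase of death receptors, and Apaf1, the scaffold of the apoptosome, rose with log2 fold changes of 0.69 (edgeR adjusted p = 0.000111) and 0.54 (edgeR adjusted p = 0.000419). The BH3-only genes Pmaip1, Bcl2l11 and Bbc3, whose proteins trigger the mitochondrial route, fell. Pmaip1 measured 117, 121, 101 and 119 CPM in WT and 15.1, 19.6, 28.2 and 38.5 CPM in Cxcr2-/- libraries, a log2 fold change of -2.17 (edgeR adjusted p = 1.04e-05). Bcl2l11, encoding Bim, fell by 1.08 on the log2 scale (edgeR adjusted p = 4.68e-05) and Bbc3, encoding Puma, by 0.81 (edgeR adjusted p = 0.000959). Trp73 and Hrk did not pass the filter on low counts.

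The WT libraries held 34220182 to 46233555 counts on genes and the Cxcr2-/- libraries 37549648 to 43789253. Cxcr2, the targeted gene, ran from 1719 to 2252 CPM in WT and from 12.9 to 20.7 CPM in Cxcr2-/- libraries, in the direction of every label. Summed over 7 neutrophil markers, WT libraries held 29781 to 43263 CPM and Cxcr2-/- libraries 65814 to 79684 CPM. Of these markers 5 passed as higher, 1 as lower (Csf3r, the G-CSF receptor, from 6960.3 ± 462 to 3334 ± 147 CPM) and 1 did not pass (Itgam, which encodes CD11b). Summed markers of primary granule precursors ran from 4.37 to 17.3 CPM in WT and from 70.5 to 386 CPM in Cxcr2-/- libraries. Those of secondary granule precursors ran from 21989 to 26790 CPM in WT and from 51265 to 74057 CPM in Cxcr2-/- libraries. RNA of cells outside the gate was lower in Cxcr2-/- for 7 B cell markers (31.2 to 74.9 against 76.6 to 167 CPM) and for 8 monocyte and macrophage markers (247 to 367 against 502 to 604 CPM), and overlapped for T cell and erythroid markers. With a covariate for RNA of such cells, the members counted as higher were still 8. The share of read pairs that HTSeq counted on no feature was 31.4% to 41.5% in WT and 26.7% to 31.9% in Cxcr2-/- mice. A two-sided exact permutation test of 4 against 4, whose smallest possible p is 0.0286, gave p = 0.0571. The feature type and strand setting of the counting are not given in the sources used here, so such pairs may lie inside genes. With this share as a covariate, 4 members passed as higher, E2f1, E2f7, E2f8 and Rbl1. In that fit E2f3 had a log2 fold change of 0.56 (edgeR adjusted p = 0.0581), close to its 0.62 without the covariate. E2f2 had 0.61 in place of 0.92 (edgeR adjusted p = 0.057), E2f4 had 0.44 in place of 0.62 (edgeR adjusted p = 0.105) and Tfdp1 had 0.43 in place of 0.73 (edgeR adjusted p = 0.113). WT replicate 1 had a share of 31.4%, within the Cxcr2-/- range. It was the highest WT library for E2f2 (128 CPM), E2f3 (11.5 CPM) and Tfdp1 (137 CPM). For E2f4 it measured 23.4 CPM, and WT replicate 3 was higher at 23.8 CPM. For each of these genes it lay below every Cxcr2-/- library. The part of this share in the member values was not tested further.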

How the data were processed

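RNAseq was made from sorted spleen neutrophils of 4 WT and 4 Cxcr2-/- mice. The authors depleted ribosomal RNA, prepared directional libraries, trimmed reads, used STAR to align them to the mm10 genome and HTSeq to count genes, and deposited unnormalized whole-number counts by Ensembl identifier. Groups and replicate numbers came from the labels. Of 55414 identifiers, 52133 matched GENCODE M21 and 3281, with 1.42% of the counts, did not.

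Counts were fitted with edgeR 4.0.16 in R 4.3.3 (TMM, filterByExpr, quasi-likelihood test, Benjamini-Hochberg adjustment over 16778 genes). The HTSeq rows that name no gene were left out. CPM per kb used the merged exon length. The alternatives were DESeq2 1.42.0, RLE, upper-quartile and total-count scaling, 2 other filters, the replicate block and each library left out. Covariates for non-neutrophil RNA and for pairs counted on no feature were alternatives too. The fit with Cxcr2-/- replicates 3 and 4 left out together was added after seeing the data. The common biological coefficient of variation was 0.202. Pairs of replicates differed by more than counting noise (chi-square per gene 23.9 to 99.0). Same-numbered mice are different animals, and the numbers did not pair them.

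The members and lists were chosen with earlier results of these data known. Named were all members, E2f5, E2f6, Tfdp2, Cxcr2, the 3 genes most like the member with the largest rise, and from each list the 3 largest passing changes in each direction, with genes needed to say which did not pass. Some genes often counted among apoptotic targets are not reported here. Other list genes named were chosen after their values were seen. Mice are the replicates, and intervals cover the spread between them at this depth.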

Additional observations from a re-analysis of the deposited data

Results flagged for a closer look

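In 34 groups of 4 libraries, a library was called far from the rest when its gap to the nearest one took up most of the range of its group, which chance gives in about 1 group in 20. It happened in 3 groups. E2f1 in Cxcr2-/- neutrophils was lowest in replicate 2, at 11.1 CPM against 13.1 CPM for the nearest library, a gap of 0.851 of the range, and this library still lay above every WT library. E2f3 in WT neutrophils was lowest in replicate 2, at 11.0 CPM against 11.4 CPM, a gap of 0.869 of a range that was itself narrow. The share of pairs counted on no feature was, within WT, lowest in replicate 1, at 31.4% against 40.0% (0.851 of the range).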

How the results depend on the processing

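The count of 8 family members higher in Cxcr2-/- was 4 with the covariate for pairs counted on no feature. Under every other alternative run it stayed at 8. It was 8 with any single library left out and 8 with the replicate block. Replicate numbers did not pair the mice, since same-numbered mice gave correlations of 0.15, -0.187, 0.245 and -0.308. The count of members lower was 0, and it was 1 (Rb1) with RLE normalization, with at least 10 counts in every library and with the covariate for non-neutrophil RNA, 2 (Rb1 and Rbl2) with total counts and with upper-quartile normalization, and 0 to 1 with 1 library left out. Against TMM, upper-quartile normalization moved the median of all genes by -0.119 and total counts by -0.0897 on the log2 scale. Over all genes at 1.5-fold, 2628 were higher and 2628 lower. With the covariate for pairs counted on no feature these were 1502 and 1341, and with 1 library left out 2399 to 2603 and 2417 to 2808.

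Of other E2F and DP genes 1 was higher (E2f6) with the covariate for non-neutrophil RNA, and 0 to 1 with 1 library left out. Of pocket protein kinases and inhibitors 2 were lower in place of 4 under either covariate. Of G1/S targets 1 was lower in place of 0 with DESeq2, RLE, no filter, the replicate block or Cxcr2-/- replicates 3 and 4 left out (chosen after seeing the data), 2 with upper-quartile normalization, and 0 to 1 with 1 library left out. Of chromatin partners 1 was lower in place of 3 with the covariate for pairs counted on no feature. The causes were not tested. The sign turned for E2f5 (1.11 with that covariate, -0.45 to 0.028 with 1 library left out, the upper value without WT replicate 2), and for Tfdp2 (-0.034) and Mcm4 (-0.097) with Cxcr2-/- replicates 3 and 4 left out. Of 47 named genes, 30 kept their direction and their side of the threshold under every alternative that gave them a value. E2f5 had 20 to 74 counts per library and Cdkn2b less than 1 CPM, so their values are imprecise.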
